A study of Mus musculus with 9 samples.

Results

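Rab GTPases are small membrane-bound switches that direct vesicle traffic. The Rab genes of mouse bone marrow-derived macrophages (BMDM) were taken as the protein-coding genes whose GENCODE M21 symbol is Rab followed by a number and at most a letter from a to f, which leaves out Rab effectors. This rule found 59 genes among the 55536 gene IDs of the count table, 22028 of which are protein-coding. RNA sequencing had been done on wild-type BMDM grown from bone marrow of male mice 6 to 12 weeks old with M-CSF, the macrophage growth factor, at 25 ng/mL over 6 days. All recipient cells therefore shared genotype and differentiation, and they differed in an 18-hour treatment. One group received EKO-BMDM-exo, exosomes of macrophages from ApoE-deficient mice, at 2e+09 particles/mL. A second group received WT-BMDM-exo, exosomes of macrophages from wild-type mice, at the same dose, and the third received PBS, the vehicle. Exosomes are small vesicles that cells release, and ApoE is a lipid carrier protein that macrophages secrete. Each group had 3 libraries. The study calls these biological replicates but the sources used here do not say whether they came from separate mice or separate exosome preparations. Each p-value therefore reflects how much sequenced libraries varied within the groups, which may be technical. That spread was estimated over all 9 libraries together and in part from other genes.

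A Rab protein is active when bound to GTP and inactive when bound to GDP. Guanine nucleotide exchange factors load it with GTP on a given membrane, effectors bind the GTP form to tether, move or fuse vesicles, GTPase activating proteins switch it off, and GDP dissociation inhibitors return it to the cytosol. Each compartment of the endocytic and secretory routes carries its own Rabs, so that Rab5 marks early endosomes, Rab11 and Rab4 recycling endosomes, Rab7 late endosomes and lysosomes, and Rab1 the route between endoplasmic reticulum (ER) and Golgi. In macrophages these routes serve phagocytosis, receptor degradation and the handling of ingested particles. By role, 7 of the genes act at early endosomes, 9 at recycling endosomes, 12 at late endosomes, lysosomes and related organelles, 13 between ER and Golgi, 13 from the Golgi to the plasma membrane or in regulated secretion, and 5 elsewhere or in less settled places.

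The results turn on Rab7b, and its coding sequence is shown beside that of its better known relative Rab7 because reads of the pair must be told apart. The first 72 coding bases of each gene, from GENCODE M21 on GRCm38, run as follows, with the 24 positions at which the genes differ in capitals.
Rab7b: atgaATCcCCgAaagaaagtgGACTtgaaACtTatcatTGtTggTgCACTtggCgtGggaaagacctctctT
Rab7: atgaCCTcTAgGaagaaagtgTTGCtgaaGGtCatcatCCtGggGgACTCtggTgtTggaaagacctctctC
The run of shared bases near the end of both stretches encodes part of the nucleotide-binding loop. Over the whole coding sequences, 597 bases in Rab7b and 621 in Rab7, the genes were 62.2% identical when aligned, and the longest identical run was 18 bases. No 50-base stretch of Rab7b exons occurred in another annotated gene, whereas 12.7% of those of Rab7 did, in the pseudogene Rab7-ps1 and the antisense gene Gm5577 among others. Paralogs of other Rab subfamilies were 73.9% to 78.4% identical, with longest identical runs of 14 bases between Rab11a and Rab11b and 38 bases between Rab1a and Rab1b.

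Total counts per library ranged from 28581306 to 35929596, with 17150 to 18680 genes detected. In a principal component analysis, replicate 3 of WT-BMDM-exo stood apart on component 1 (57.5, against -16.8 to 3.43 in the others; 15.2% of the variance), and replicate 2 of EKO-BMDM-exo (38) and replicate 2 of WT-BMDM-exo (-45.4) stood apart on component 2 (15.1%). All 10 macrophage markers were detected. Their summed level was 21200 to 22200 CPM (counts scaled to the size of the library, with TMM factors) after EKO-BMDM-exo, 21400 to 22100 CPM after WT-BMDM-exo and 23100 to 24400 CPM after PBS. Neutrophil markers summed to 12.7 to 23.6, 19.4 to 38.9 and 29.3 to 40.6 CPM in the same order of groups, and the stromal list to 6.74 to 25.6, 17.7 to 31.2 and 10.5 to 64.7 CPM. Erythroid and megakaryocyte markers summed to 3.97 to 6.36, 7.46 to 9.4 and 6.04 to 8.07 CPM, with 4 of 8 at 0 in every library. B cell, T and NK cell, dendritic cell, and mast cell and basophil lists each stayed at or below 2.22 CPM in every library, with 6 of 8 mast cell and basophil markers at 0 throughout.

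Of the 59 Rab genes, 49 had enough counts to be tested and 10 did not. The 10 were Rab25 and Rab17 of the recycling group, Rab9b of the late endosome group, Rab30, Rab33a and Rab39b of the ER and Golgi group, Rab3b, Rab3c and Rab27b of the secretion group, and Rab40b. Their highest level in any library was 0.622 CPM. Rab27b and Rab39b had 0 counts in all 9 libraries, which allows up to 0.105 CPM in the shallowest library if 3 counts are taken as the limit (counting error only). By mean level, 13 members were at 100 CPM or more, 21 between 10 and 100 CPM, 10 between 1 and 10 CPM and 15 under 1 CPM, 5 of which were tested. The 10 most abundant members took 66.9% of all Rab counts. Rab counts summed to 4355 ± 38.6 CPM after EKO-BMDM-exo, 4339 ± 91 CPM after WT-BMDM-exo and 4282 ± 42.2 CPM after PBS (SD, n = 3 each).

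Levels were compared between genes as RPKM, here CPM per kilobase of the exons of all a gene's transcripts. The early endosome gene Rab5c was highest at 147 RPKM (mean of 9 libraries), and its libraries did not overlap those of the next gene. The late endosome gene Rab7 followed at 120 RPKM and overlapped with Rab8b, which serves traffic to the plasma membrane, at 111 RPKM. Rab1b of the ER-to-Golgi route had 94.4 RPKM. Rab31, a relative of Rab22a on endosomes, had 80.6 RPKM and overlapped with Rab7b at 77.2 RPKM. Rab10, which acts in exocytic and endosomal transport, and Rab1a overlapped at 63.4 and 62.0 RPKM. Rab32, which serves lysosome-related organelles, followed at 43.4 RPKM and overlapped with Rab2a of the ER and Golgi at 38.2 RPKM. Rab2a in turn overlapped with Rab35, the highest recycling gene by this length, at 35.1 RPKM. Of the 10 highest genes, 9 were also among the 10 highest when the longest transcript gave the length. The exception came from Rab14, whose exons span 13589 bases while its longest transcript has 5003. It ranked 17th by the exons and 9th by the longest transcript, at 19.0 to 20.7 RPKM by the exons and a mean of 54.2 RPKM by the longest transcript. By the longest transcript Rab14 was thus above Rab35, which had 35.1 RPKM by either length.

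**Figure D1:**
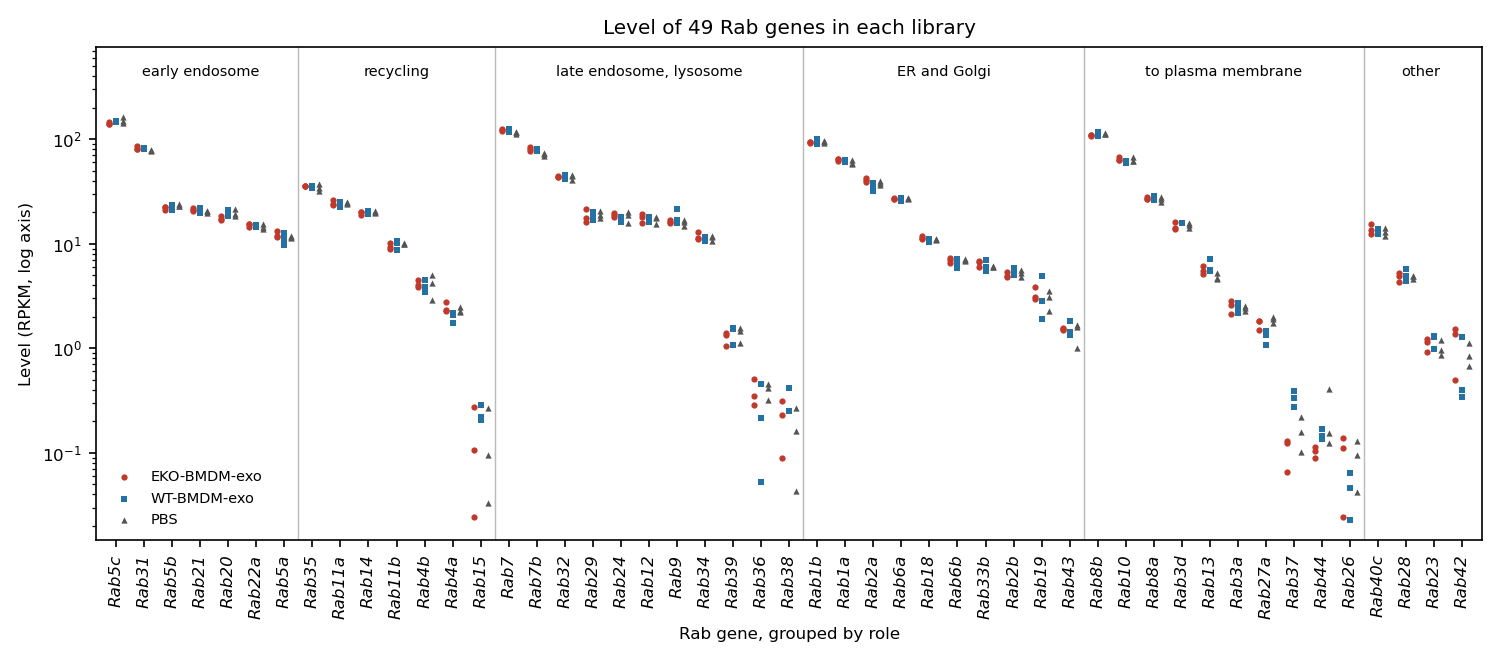
Level (RPKM, log axis) of the 49 tested Rab genes in each of the 9 libraries, grouped by role and sorted by mean level, with EKO-BMDM-exo, WT-BMDM-exo and PBS side by side for each gene. Levels span from 147 RPKM for Rab5c to 0.0747 RPKM for Rab26, and libraries spread widely only among the genes near the bottom.

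Within subfamilies, a single paralog usually held most of the level. Rab5c held 80.2% to 82.1% of the Rab5 level across libraries, Rab5b 11.7% to 13.0% and Rab5a, the best studied of them, 5.32% to 7.26%. Rab8b held a mean of 80.3% of the Rab8 level, Rab2a 87.9% of Rab2, Rab6a 79.7% of Rab6, Rab11a 71.4% of Rab11 and Rab3d, a Rab of secretory granules, 85.8% of Rab3. The Rab7, Rab1 and Rab4 pairs were more even. Rab7 held 60.8% and Rab7b 39.2% of their sum (64.6% and 35.4% by the longest transcript). Rab1b held 60.4% of the Rab1 level, and Rab4b held 64.0% of the Rab4 level (55.9% to 69.7% across libraries). Rab27a, which docks secretory organelles and is known from human cells for exosome release, was the only Rab27 gene with counts.

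**Figure D2:**
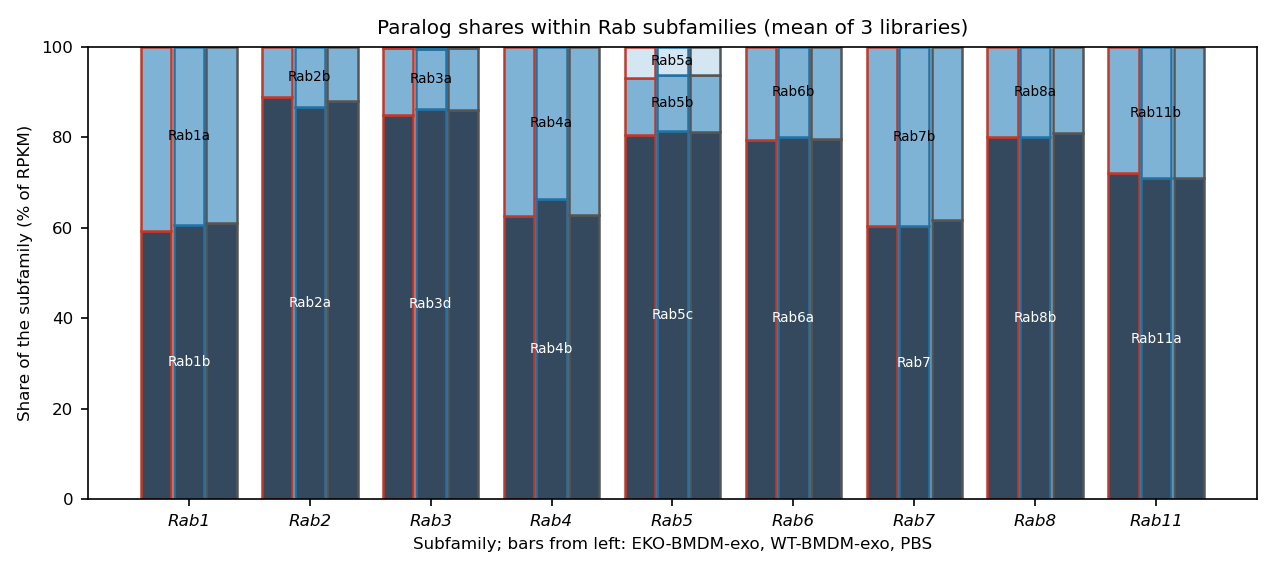
Share of each paralog in the RPKM of its subfamily (% of the subfamily, mean of 3 libraries), with bars for EKO-BMDM-exo, WT-BMDM-exo and PBS from left to right in each subfamily. The leading paralog is the same in every group, and its share differs by at most a few percentage points between groups.

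The first question was which Rab transcripts differ after exosomes of ApoE-deficient macrophages. Rab7b rose, by 13.1%, and no Rab gene fell. Thus 1 of 49 tested members was called higher and 0 lower by edgeR at an adjusted p under 0.05, where 1.82% of the 13815 genes tested were called higher, 2.41% lower and 4.23% in all. A share of 1 in 49 is near the background of higher calls. At an unadjusted p under 0.05 there were 5 members (Rab1a, Rab31, Rab5c, Rab7 and Rab7b), against a background of 13.1%. The log2 fold changes of the 49 members had a median of 0.036, beside -0.001 over all genes tested.

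Rab7b (ENSMUSG00000052688, chromosome 1, plus strand, 131688695 to 131715439 in GRCm38) controls transport between late endosomes and the trans-Golgi network and, in mouse macrophages, is known for the lysosomal degradation of Toll-like receptors. Its level was 354, 375 and 388 CPM in EKO-BMDM-exo libraries, 359, 376 and 372 CPM in WT-BMDM-exo libraries, and 318, 331 and 338 CPM in PBS libraries. Every exosome library was above every PBS library, and the libraries of the exosome groups overlapped. These levels rest on 9439 to 13417 counts per library, and its exons overlap no other annotated gene. For EKO-BMDM-exo against PBS the log2 fold change was 0.18 ± 0.037 (SE; 95% interval 0.10 to 0.25; edgeR adjusted p = 0.00185), a rise of 13.1% with an interval of 7.35% to 19.2%. In bulk RNA, a change in the number of cells of a type and a change in RNA per cell cannot be told apart. Of the 10 macrophage markers, 7 fell with EKO-BMDM-exo against PBS, among them Csf1r, the M-CSF receptor, by 0.28 on the log2 scale (edgeR adjusted p = 2.35e-09). No tested marker of the other cell types passed, but few could be tested. These were 6 of 10 neutrophil, 6 of 9 stromal and 3 of 8 erythroid and megakaryocyte markers. Only 1 of 6 B cell and 1 of 8 mast cell and basophil markers were tested, and no T and NK cell or dendritic cell marker. Of these other lists, only the neutrophil sum after EKO-BMDM-exo lay wholly below PBS (12.7 to 23.6 against 29.3 to 40.6 CPM). Whether such changes in cells had a part in the level of Rab7b was not tested.

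After exosomes of wild-type macrophages, Rab7b rose as well. The log2 fold change of WT-BMDM-exo against PBS was 0.16 ± 0.037 (95% interval 0.09 to 0.24; edgeR adjusted p = 0.00503), a rise of 12.0% with an interval of 6.3% to 18.1%. Again 1 of 49 members was called higher and 0 lower, against backgrounds of 1.93% higher, 2.18% lower and 4.11% in all. Without replicate 1 of PBS the log2 fold change was 0.14 and the call was lost (adjusted p = 0.0514). At an unadjusted p under 0.05 there were 4 members (Rab13, Rab27a, Rab7 and Rab7b), against 14% of all genes. The median log2 fold change of the members was -0.003, the same as over all genes tested. Of the macrophage markers 6 fell and 1 rose in this comparison. Both comparisons with PBS share the PBS libraries. In the F test across the 3 groups, Rab7b was the only member to pass (edgeR adjusted p = 0.00168), where 5.28% of all genes did.

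The libraries that stood apart in the principal component analysis did not carry the calls of Rab7b. Without replicate 2 of EKO-BMDM-exo its log2 fold change against PBS was 0.18 (edgeR adjusted p = 0.0154). Without replicate 2 or replicate 3 of WT-BMDM-exo it was 0.15 or 0.16 for WT-BMDM-exo against PBS (edgeR adjusted p = 0.034 and 0.0253).

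Between the exosomes, Rab7b did not pass, with a log2 fold change of 0.01 ± 0.037 for EKO-BMDM-exo against WT-BMDM-exo (edgeR adjusted p = 0.973). The 95% interval of that difference ran from -4.18% to 6.42%.

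**Figure D3:**
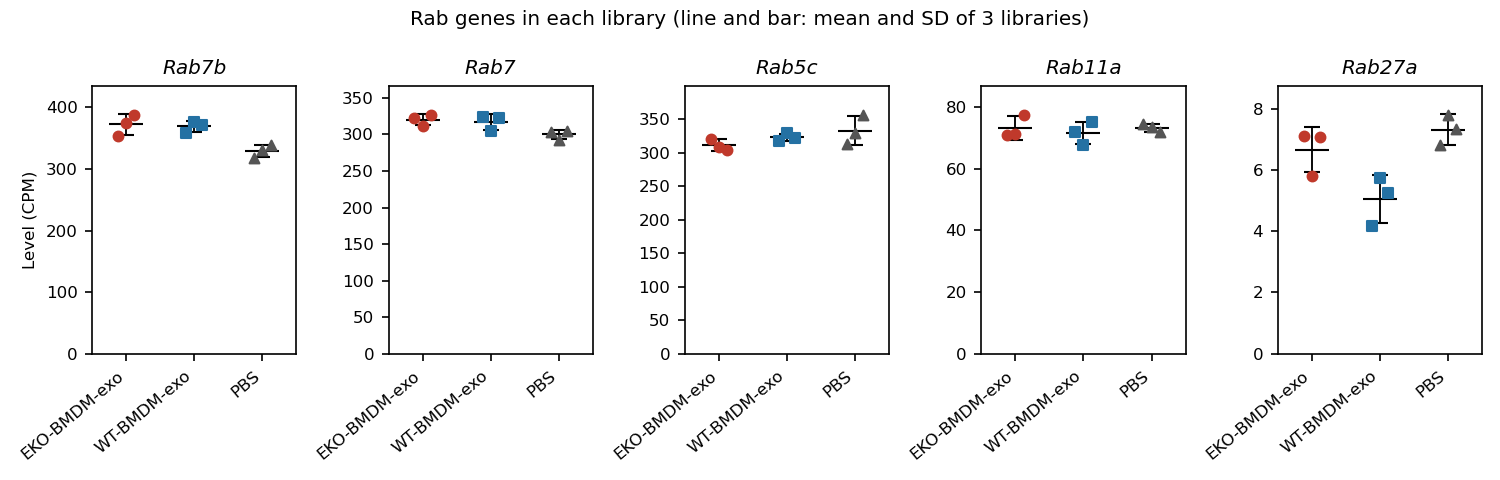
Level (CPM, linear axes from 0) of Rab7b, Rab7, Rab5c, Rab11a and Rab27a in each library after EKO-BMDM-exo, WT-BMDM-exo and PBS, with the mean and SD of 3 libraries as lines. Rab7b lies between 354 and 388 CPM in the exosome libraries and between 318 and 338 CPM in the PBS libraries, while the groups of Rab5c and Rab11a overlap.

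Beside Rab7b, the late endosome group held 11 tested members and none of the other 10 passed. Rab7 (ENSMUSG00000079477, chromosome 6, minus strand), which drives fusion with lysosomes and their transport, had 322, 312 and 327 CPM after EKO-BMDM-exo, 324, 305 and 322 CPM after WT-BMDM-exo, and 303, 293 and 304 CPM after PBS. As with Rab7b, every exosome library was above every PBS library. The log2 fold changes were 0.09 ± 0.037 for EKO-BMDM-exo against PBS and 0.08 ± 0.037 for WT-BMDM-exo against PBS and did not pass (edgeR adjusted p = 0.19 and 0.305). The 95% interval for EKO-BMDM-exo against PBS ran from 1.38% to 12.4%. Rab32 stayed between 94.6 and 106 CPM in all 9 libraries. Rab12, known for receptor degradation, Rab9, for transport from late endosomes to the Golgi, Rab29, Rab34 and Rab24 lay between 23.8 and 58.1 CPM, with log2 fold changes of -0.08 to 0.17 against PBS. The exons of Rab24 overlap those of Prelid1 over 62.4% of their length, so its counts are uncertain. Rab39, Rab36 and Rab38 were at or below 4.67 CPM.

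The early endosome group had 7 members, all tested, and none passed in any comparison. Rab5c, which acts in homotypic fusion of early endosomes, had 321, 309 and 304 CPM after EKO-BMDM-exo, 318, 329 and 322 CPM after WT-BMDM-exo, and 313, 330 and 357 CPM after PBS. PBS replicate 3 was the highest and the groups overlapped. The log2 fold change was -0.10 ± 0.040 for EKO-BMDM-exo against PBS (edgeR adjusted p = 0.216). Without replicate 1 of PBS it was -0.14, with an adjusted p of 0.0479, and without replicate 3 of PBS it was -0.05. Rab5a had 69.6, 61.7 and 61.8 CPM after EKO-BMDM-exo, 58.9, 51.4 and 66.5 CPM after WT-BMDM-exo, and 63.0, 59.6 and 61.0 CPM after PBS, and its groups overlapped (edgeR adjusted p = 0.811 and 0.854 against PBS). Rab31, chosen after its values were seen, had 328, 305 and 309 CPM after EKO-BMDM-exo, 316, 311 and 307 CPM after WT-BMDM-exo and 298, 295 and 299 CPM after PBS. All its exosome libraries were above its PBS libraries, by 5.62% and 4.77%, and neither difference passed (edgeR adjusted p = 0.325 and 0.431). Rab22a and Rab21 lay between 99.4 and 112 CPM, and Rab5b between 88.4 and 100 CPM. Rab20, a Rab of phagosome maturation, had 23.7 to 29.7 CPM, and 25.6% of its exon length overlaps a noncoding RNA on the other strand.

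Recycling endosome genes gave no call among 7 tested. Rab11a, the marker of the recycling compartment, had 70.8, 71.1 and 77.5 CPM after EKO-BMDM-exo, 71.9, 67.8 and 75.0 CPM after WT-BMDM-exo, and 74.4, 73.4 and 71.8 CPM after PBS. Its mean was 73.1, 71.6 and 73.2 CPM in these groups, and the 95% interval for EKO-BMDM-exo against PBS ran from -8.61% to 9.18%. Rab35, which returns cargo from endosomes to the plasma membrane, had 99.5, 100 and 101 CPM after EKO-BMDM-exo, 97.0, 99.8 and 101 CPM after WT-BMDM-exo, and 90.4, 105 and 96.9 CPM after PBS. The exosome libraries lay within the range of the PBS libraries. Rab14, which links Golgi and endosomes, was the most counted recycling gene at 258 to 281 CPM. Rab11b lay between 53.3 and 64.5 CPM, and Rab4b, Rab4a and Rab15 were at or below 10.0 CPM. Of the exon length of Rab4b, 65.0% is shared with the protein-coding gene Gm21983.

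In the secretory routes, 10 genes between ER and Golgi and 10 towards the plasma membrane were tested, and none passed. Rab1b, which tethers vesicles arriving at the Golgi, had 215, 207 and 212 CPM after EKO-BMDM-exo, 230, 204 and 219 CPM after WT-BMDM-exo, and 218, 208 and 218 CPM after PBS. Rab8b had 521, 511 and 513 CPM after EKO-BMDM-exo, 556, 506 and 522 CPM after WT-BMDM-exo, and 539, 527 and 528 CPM after PBS. Its EKO-BMDM-exo libraries were all below its PBS libraries, a difference of -3.07% that did not pass (log2 fold change -0.05 ± 0.033; edgeR adjusted p = 0.666). Rab27a had 7.1, 5.8 and 7.06 CPM after EKO-BMDM-exo, 4.17, 5.72 and 5.25 CPM after WT-BMDM-exo, and 6.81, 7.8 and 7.33 CPM after PBS, from 137 to 259 counts per library. The WT-BMDM-exo libraries were the 3 lowest of the 9 without overlap with either group. The log2 fold change of WT-BMDM-exo against PBS was -0.54 ± 0.2 (95% interval -0.94 to -0.13; edgeR adjusted p = 0.148), and that of EKO-BMDM-exo against WT-BMDM-exo was 0.40 ± 0.2 (edgeR adjusted p = 0.625). Neither passed. Rab40c, highest of the less settled group and part of a ubiquitin ligase, had 47.5, 38.0 and 41.4 CPM after EKO-BMDM-exo, 42.7, 38.1 and 40.4 CPM after WT-BMDM-exo, and 36.5, 40.3 and 43.8 CPM after PBS, with overlapping groups.

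Complete separation of the libraries of a pair of groups was counted as well. After EKO-BMDM-exo, 3 of 49 members lay wholly above PBS (Rab31, Rab7 and Rab7b) and 3 wholly below it (Rab44, Rab5b and Rab8b), where 9.06% and 9.23% of all genes tested did (18.3% in all). After WT-BMDM-exo, 5 lay wholly above PBS (Rab13, Rab31, Rab37, Rab7 and Rab7b) and 2 wholly below it (Rab27a and Rab4a), where 8.6% and 8.85% of all genes did (17.5% in all). These counts of members, 6 and 7 of 49, are not above the background.

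The remaining comparison asked whether exosomes of ApoE-deficient macrophages and those of wild-type macrophages left different Rab levels in the recipient cells. No member was called by edgeR, nor by DESeq2 or limma-voom, where 0.695% of all genes were called by edgeR (0.282% higher, 0.413% lower). At an unadjusted p under 0.05 there were 2 members, Rab2a and Rab37, against 8.15% of all genes. EKO-BMDM-exo lay wholly above WT-BMDM-exo for 4 members (Rab10, Rab27a, Rab2a and Rab4a) and wholly below it for 3 (Rab20, Rab37 and Rab44), where 7.04% and 7.01% of all genes did. Rab2a, which acts between ER and Golgi and was chosen after its values were seen, had 91.4, 83.2 and 86.3 CPM after EKO-BMDM-exo and 78.4, 68.4 and 81.2 CPM after WT-BMDM-exo. It was 14.4% higher after EKO-BMDM-exo (95% interval 4.54% to 25.2%), which did not pass (edgeR adjusted p = 0.237), and its PBS libraries had 78.1, 81.6 and 84.6 CPM. Rab37, a Rab of secretory granules also chosen after its values were seen, had 0.699, 0.349 and 0.666 CPM after EKO-BMDM-exo and 2.1, 1.8 and 1.47 CPM after WT-BMDM-exo. Its log2 fold change was -1.63 ± 0.59, from 10 to 69 counts per library, and did not pass (edgeR adjusted p = 0.32).

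How large a difference could have gone unseen depended on the level. For the 33 members with a mean of at least 20 CPM, all 33 of the 95% intervals lay within 1.5-fold in either direction in each comparison. Within 1.25-fold lay 31 of them for EKO-BMDM-exo against PBS, 32 for WT-BMDM-exo against PBS and 29 for EKO-BMDM-exo against WT-BMDM-exo. The standard error of these log2 fold changes was 0.033 to 0.11, and their largest absolute value 0.18, 0.17 and 0.19 in the same comparisons. Among the 16 tested members under 20 CPM, only 6, 4 and 6 intervals lay within 1.5-fold, and standard errors reached 1.1 to 1.2. The other intervals of these 16 genes reached past 1.5-fold, so a difference of that size is compatible with them. Counts of the 9 members whose exons overlap other genes over more than 10% of their length (Rab2b, Rab4b, Rab6a, Rab20, Rab24, Rab26, Rab33b, Rab39b and Rab43) are uncertain. Rab39b, at 0 throughout, was in none of the comparisons.

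**Figure D4:**
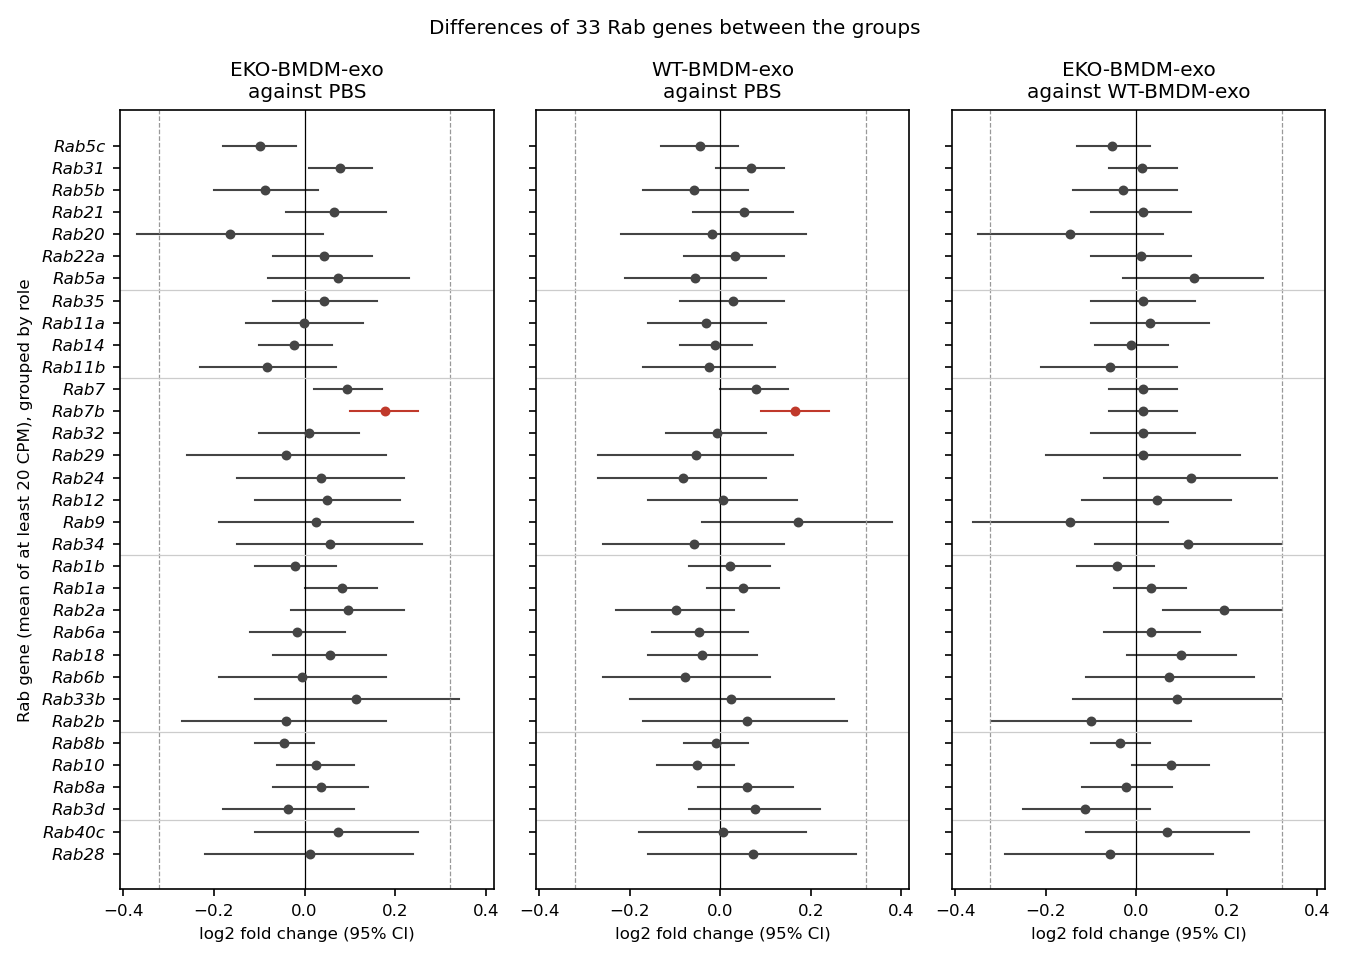
Log2 fold changes with 95% intervals for the 33 Rab genes with a mean of at least 20 CPM, grouped by role, for EKO-BMDM-exo against PBS, WT-BMDM-exo against PBS and EKO-BMDM-exo against WT-BMDM-exo from left to right. Rab7b, in red, is the only gene past the threshold, in both comparisons with PBS, and nearly all intervals lie between the dashed lines at 1.25-fold.

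The proteins that switch and read Rabs were listed as well, of which 128 genes were tested. After EKO-BMDM-exo, 8 were called higher than in PBS and 0 lower. That is 6.25%, beside a background of 1.82% higher calls and 4.23% in all. The lists were chosen with earlier results of these data known, so no excess over the background is inferred. After WT-BMDM-exo, 3 of the 128 were called higher (Tbc1d2, Rab3gap2 and Plin3), beside a background of 1.93% higher calls. Between the exosomes 1 was lower after EKO-BMDM-exo, 0.781% beside 0.413% lower calls and 0.695% in all. The medians of their log2 fold changes were 0.025, 0.024 and 0.004.

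Of 34 GTPase activating proteins tested, 2 rose in both comparisons with PBS, where 1.82% and 1.93% of all genes were called higher. Tbc1d2, which inactivates Rab7, had 47.9, 51.0 and 44.1 CPM after EKO-BMDM-exo, 41.7, 41.6 and 45.1 CPM after WT-BMDM-exo, and 32.3, 33 and 32.4 CPM after PBS. All exosome libraries were above all PBS libraries. The log2 fold changes were 0.55 ± 0.082 for EKO-BMDM-exo against PBS (edgeR adjusted p = 1.44e-05) and 0.39 ± 0.083 for WT-BMDM-exo against PBS (edgeR adjusted p = 0.00211). That of EKO-BMDM-exo against WT-BMDM-exo was 0.15 ± 0.081 and did not pass (edgeR adjusted p = 0.645). Rab3gap2, the non-catalytic subunit of the Rab3 GTPase activating complex, which also activates Rab18, had 197, 217 and 207 CPM after EKO-BMDM-exo, 195, 205 and 201 CPM after WT-BMDM-exo, and 163, 168 and 173 CPM after PBS. It rose by 0.30 ± 0.044 and 0.25 ± 0.044 on the log2 scale (edgeR adjusted p = 9.45e-06 and 0.000198).

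Effectors contributed 5 of 49 tested genes called higher after EKO-BMDM-exo and 1 after WT-BMDM-exo. Of all genes tested, 1.82% and 1.93% were called higher in these comparisons. Eea1, the Rab5 effector that tethers early endosomes, had 270, 259 and 269 CPM after EKO-BMDM-exo, 259, 243 and 249 CPM after WT-BMDM-exo, and 234, 237 and 219 CPM after PBS. It rose by 0.21 ± 0.040 on the log2 scale with EKO-BMDM-exo against PBS (edgeR adjusted p = 0.000497), and its 0.12 ± 0.040 with WT-BMDM-exo did not pass (edgeR adjusted p = 0.0793). Plekhm1, a Rab7 effector that brings late endosomes to the HOPS tethering complex, had 510, 507 and 503 CPM after EKO-BMDM-exo, 480, 473 and 493 CPM after WT-BMDM-exo, and 466, 454 and 456 CPM after PBS. The 3 groups did not overlap, and the rise with EKO-BMDM-exo against PBS was 0.14 ± 0.032 (edgeR adjusted p = 0.00351). Neither Eea1 nor Plekhm1 passed between the exosomes (edgeR adjusted p = 0.517 and 0.504). Vps18, a core subunit of HOPS, averaged 205 ± 9.77 CPM after EKO-BMDM-exo and 182 ± 7.24 CPM after PBS (SD, n = 3 each; log2 fold change 0.17 ± 0.044; edgeR adjusted p = 0.0129). Its call was lost without replicate 1 of EKO-BMDM-exo (adjusted p = 0.178), replicate 3 of EKO-BMDM-exo (0.0524), replicate 1 of PBS (0.0846) or replicate 2 of PBS (0.0616). After WT-BMDM-exo Vps18 averaged 200 ± 3.62 CPM, and its 0.14 ± 0.044 against PBS did not pass (edgeR adjusted p = 0.0711). Nor did Vps18 pass between the exosomes (log2 fold change 0.04 ± 0.044; edgeR adjusted p = 0.918).

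Plin3, a lipid droplet coat protein also described as a Rab9 effector, averaged 129 ± 4.5 CPM after EKO-BMDM-exo, 133 ± 9.38 CPM after WT-BMDM-exo and 111 ± 12 CPM after PBS (SD, n = 3 each). It rose by 0.22 ± 0.059 and 0.26 ± 0.059 against PBS (edgeR adjusted p = 0.0236 and 0.00473). The first call was lost without replicate 1 or 3 of EKO-BMDM-exo or replicate 1 or 2 of PBS (adjusted p up to 0.246), and the second without replicate 2 of PBS (0.0788) or replicate 3 of WT-BMDM-exo (0.0729). Osbpl1a, a sterol-sensing Rab7 effector chosen after its values were seen, rose by 0.35 ± 0.10 with EKO-BMDM-exo against PBS (edgeR adjusted p = 0.0354). That call was lost without any of the EKO-BMDM-exo libraries in turn and without replicate 2 or 3 of PBS (adjusted p 0.0511 to 0.242). With WT-BMDM-exo against PBS the log2 fold change of Osbpl1a was 0.25 ± 0.1 and did not pass (edgeR adjusted p = 0.21). Osbpl1a did not pass between the exosomes either (0.10 ± 0.1; edgeR adjusted p = 0.885).

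Among 31 exchange factors tested, 1 was called higher with EKO-BMDM-exo against PBS, where 1.82% of all genes were. This was Dennd4c, which activates Rab10. It averaged 328 ± 11 CPM after EKO-BMDM-exo and 292 ± 17.2 CPM after PBS (log2 fold change 0.17 ± 0.040; edgeR adjusted p = 0.00867), and the call was lost without replicate 1 of EKO-BMDM-exo (adjusted p = 0.102) or replicate 2 of PBS (0.105). After WT-BMDM-exo Dennd4c averaged 320 ± 11.6 CPM, and its 0.13 ± 0.041 against PBS did not pass (edgeR adjusted p = 0.0632). Nor did Dennd4c pass between the exosomes (log2 fold change 0.04 ± 0.04; edgeR adjusted p = 0.903). Rab3il1, an exchange factor for Rab8, averaged 204 ± 5.97 CPM after EKO-BMDM-exo, 230 ± 11.7 CPM after WT-BMDM-exo and 209 ± 3.59 CPM after PBS. It was lower after EKO-BMDM-exo than after WT-BMDM-exo (log2 fold change -0.17 ± 0.042; edgeR adjusted p = 0.0415). Against PBS its log2 fold changes were -0.04 for EKO-BMDM-exo and 0.13 for WT-BMDM-exo, and neither passed (edgeR adjusted p = 0.826 and 0.0699). With upper quartile scaling the adjusted p was 0.0504, and the call was lost without any of the EKO-BMDM-exo libraries in turn and without replicate 2 or 3 of WT-BMDM-exo (adjusted p 0.0613 to 0.371).

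**Figure D5:**
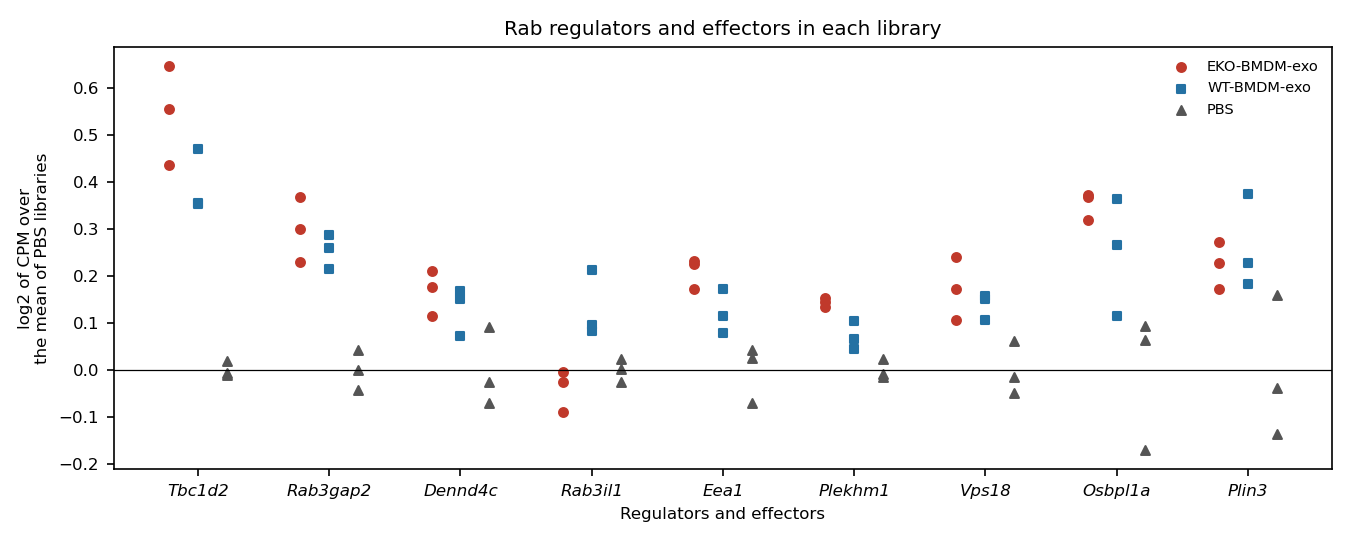
Log2 of the CPM in each library over the mean of the PBS libraries, for the 9 Rab regulators and effectors named in the text, each past the threshold in at least 1 comparison, with EKO-BMDM-exo, WT-BMDM-exo and PBS side by side. Every exosome library lies above every PBS library for all genes shown except Dennd4c and Rab3il1.

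Promoter sequence was not used to choose the members. RefSeq promoters of GRCm38.p6, from 250 bases before to 50 bases after the gene start, were found for 48 of the 59 members. These members had 60 promoters. Promoters were searched on both strands for TCACGTGA, the core of the motif that TFEB reads in lysosomal genes. It was in 3 of the 60 member promoters, each of a different member, and in 0.974% of all 32851 promoters. The shorter CACGTG, contained in it, was in 6 of the 60 (of Rab5a, Rab20, Rab21, Rab23, Rab24 and Rab27a) and in 7.15% of all promoters. AGGAAGTG, a core read by the macrophage factor PU.1, was in 4 of the 60 (of Rab2b, Rab6a, Rab13 and Rab32) and in 4.07% of all promoters. The AP-1 motif TGANTCA was in 3 of the 60 (of Rab15, Rab34 and Rab39b) and in 7.81% of all promoters. The TCACGTGA matches are printed in capitals with 20 bases on each side, in the direction of the gene.
Rab5a, chr17:53479118-53479165, plus strand: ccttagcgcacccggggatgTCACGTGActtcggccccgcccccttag
Rab21, chr10:115315595-115315642, minus strand: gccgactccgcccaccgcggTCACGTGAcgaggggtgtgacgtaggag
Rab24, chr13:55321952-55321999, minus strand: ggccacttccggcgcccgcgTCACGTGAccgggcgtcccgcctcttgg
None of these 3 members passed in any comparison. As Rab7b was the only member to pass, no conclusion on the motif is drawn from this. The log2 fold changes for EKO-BMDM-exo against PBS were 0.07 for Rab5a, 0.07 for Rab21 and 0.04 for Rab24.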

How the data were processed

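Sequencing libraries of mRNA were prepared from total RNA, per the labels' protocols. The authors deposited raw counts per Ensembl gene for 9 libraries. The submitters' processing notes list the aligner STAR 2.7.5c and the build GRCm38. Which annotation and strand setting the counting used is not given in the sources used here. All 55536 IDs matched GENCODE M21.

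Counts were tested in R 4.3.3 with edgeR 4.0.16. Genes were kept by filterByExpr at a minimum count of 10 (13815 genes), scaled with TMM factors (0.9947 to 1.009) and fitted to all 9 libraries by robust quasi-likelihood with the group as the only term (biological coefficient of variation 12%). P-values were adjusted by Benjamini-Hochberg over all genes, with a threshold of 0.05. Standard errors and 95% intervals came from the F statistics and are not adjusted for the number of genes. CPM values carry TMM scaling. Alternatives were RLE and upper quartile scaling, DESeq2 1.42.0, limma-voom (limma 3.58.1), no filter, a minimum count of 50, only the 6 libraries compared, a replicate block, leaving out each library in turn, and the longest transcript as length. The tests were checked on simulated counts.

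The members, role groups, regulator and marker lists and tests were chosen with earlier results of these data known. Values of all libraries are given for called members, the member with the highest RPKM of each role group, and Rab5a, Rab7, Rab11a and Rab27a. Up to 4 called genes with the lowest p are named per regulator list and comparison. Other named genes are identified as chosen after their values were seen or stand in a complete count. A result of the regulator lists is not reported here.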

Additional observations from a re-analysis of the deposited data

How the results depend on the processing

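The rise of Rab7b with EKO-BMDM-exo against PBS held under every alternative run (log2 fold change 0.15 to 0.21, adjusted p 0.000268 to 0.0429). That with WT-BMDM-exo against PBS was lost without replicate 1 of PBS, when 0 Rab genes passed, and held otherwise (leave-one-out range 0 to 1 genes). With EKO-BMDM-exo against PBS, 2 Rab genes passed without replicate 1 of PBS, Rab7b and Rab5c (leave-one-out range 1 to 2). Between the exosomes 0 passed throughout. Calls over all genes between the exosomes were 96, against 157 with DESeq2 and 52 to 109 when leaving out a library. The cause was not tested. The sources used here do not say whether replicate numbers pair the libraries. Deviations of same-numbered libraries from their group means correlated at -0.035 to 0.04, and those of differently numbered libraries at -0.048 to 0.039. These correlations showed no strong shared deviation, but they cannot tell whether the libraries were paired. With the replicate block, 662, 669 and 144 genes passed for EKO-BMDM-exo against PBS, WT-BMDM-exo against PBS and EKO-BMDM-exo against WT-BMDM-exo, against 585, 568 and 96 without it, and Rab7b stayed the only Rab gene called. Signs turned only in comparisons in which the member was not called. For EKO-BMDM-exo against PBS, Rab11a was 0.001 with upper quartile scaling and 0.001 with no filter. Leaving out each library gave ranges of -0.048 to 0.021 for Rab11a, -0.006 to 0.101 for Rab35 and -0.020 to 0.147 for Rab40c in that comparison. For WT-BMDM-exo against PBS they were -0.065 to 0.007 for Rab11a, -0.022 to 0.068 for Rab1b, -0.021 to 0.085 for Rab35, -0.057 to 0.072 for Rab40c, -0.148 to 0.037 for Rab5a, -0.088 to 0.005 for Rab5c and -0.047 to 0.023 for Rab8b. For EKO-BMDM-exo against WT-BMDM-exo they were -0.016 to 0.067 for Rab11a, -0.003 to 0.029 for Rab35, -0.027 to 0.137 for Rab40c, -0.011 to 0.035 for Rab7 and -0.020 to 0.047 for Rab7b. Depth limits the 16 tested members under 20 CPM.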
